A study of Mus musculus with 18 samples.

Results

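The semaphorin, plexin, ephrin and Eph receptor genes were followed in isolated alveolar type II cells, the surfactant-producing cells of the lung's air sacs, from mice with and without deletion of Cebpa, which encodes the transcription factor C/EBP alpha. The genes were taken by symbol: every gene whose single symbol on the array is that of a class 3 to 7 semaphorin, a plexin, an ephrin or an Eph receptor. This gave 50 of the 19938 genes with a single symbol, of which 20 are semaphorins, 9 are plexins, 8 are ephrins and 13 are Eph receptors. Ephb2 was not analysed here.

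RNA of 18 cell samples from mice aged 7 to 8 weeks was measured on 18 arrays, in 6 groups of 3. Control cells came from CEBP/a(flx/flx) littermates that lack rtTA or Cre. The knockout cells are labelled CCSP/rtTA/CEBPa(flx/flx), a label that does not itself name Cre, and both genotypes carry the floxed allele. The series design states deletion in Clara cells from early gestation and in type II cells from near term, and cells were taken at 0, 2 and 24 h of hyperoxia, although the description of every sample reads air. CCSP is the Clara cell secretory protein, so the transgene's promoter is one of airway secretory cells. The labels do not say whether the 3 arrays of a group were separate animals, so each p-value reflects only how far these arrays scattered.

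Semaphorins are guidance signals that are either secreted (class 3) or held in the membrane (classes 4 to 7), and plexins are their receptors. Class 3 semaphorins mostly reach plexins through the neuropilin co-receptors. Ephrins are ligands anchored in the membrane of one cell that bind Eph receptor tyrosine kinases on a neighbouring cell, and both sides can signal. These families were first described in axon guidance and are also known for their roles in vessel growth, in epithelial contacts and in the branching of the embryonic lung.

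Values are log2 expression levels, so a difference of 1 is a doubling. A gene was called higher or lower where its Benjamini-Hochberg adjusted p over all 19938 genes, from limma's moderated linear model, was below 0.05. Standard errors (SE) come from the same model, which pools the spread of all 18 arrays, so they are not the spread of the groups compared alone. Levels are compared within a gene, because probes differ in brightness. The exception is a split of genes at the median gene by mean level, which ranks probe signal and not amounts of RNA.

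Cebpa itself read 10.95, 10.98 and 11.04 in control arrays at 0 h against 10.58, 10.66 and 10.43 in knockout arrays, a difference of -0.43 that was not called (adjusted p = 0.429). It was lower in knockout by 1.10 at 2 h and by 1.83 at 24 h on the log2 scale, and both were called. The surfactant protein C gene Sftpc, a defining type II marker, stayed between 13.68 and 14.62 on every array. Markers of other cells were also present, and some moved with genotype. The mean of 18 endothelial markers was 8.05 to 8.30 in control and 9.01 to 9.25 in knockout arrays at 0 h, 7.95 to 8.25 and 8.56 to 9.46 at 2 h, and 8.06 to 8.70 and 8.93 to 9.06 at 24 h. The mean of 16 type II markers was 12.96 to 13.00 in control and 12.81 to 12.87 in knockout arrays at 0 h, where 0 were called. At 24 h it was 12.07 to 12.17 in control and 11.22 to 11.56 in knockout arrays, and 15 of the 16 were called lower. At 24 h 9 of 14 fibroblast and smooth muscle, 7 of 13 lymphocyte, 4 of 13 macrophage and 3 of 8 airway markers were called higher, with 2 macrophage markers lower. Of all genes 24.3% were called higher and 26.4% lower at 24 h, and the macrophage and airway counts are near these shares. The spread of values within an array also differed: the interquartile range over all genes was 2.89 to 3.06 on the arrays at 0 h, 2.13 to 2.55 at 2 h, 2.44 to 2.52 in controls at 24 h and 1.82 to 2.13 in knockout arrays at 24 h. In such samples fewer cells of a type and less RNA per cell cannot be told apart.

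**Figure D1:**
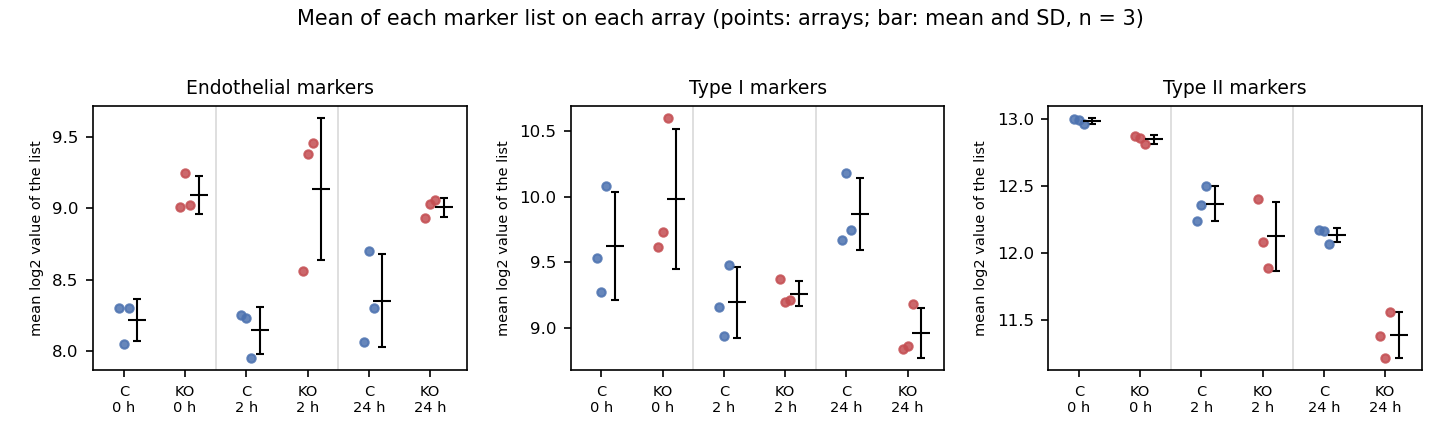
Mean log2 value of the endothelial (18 genes), type I (11 genes) and type II (16 genes) marker lists on each of the 18 arrays, by genotype (C, control; KO, knockout) and time; bars give the mean and SD of 3 arrays. Endothelial markers lie higher in knockout at all 3 times, type II markers lie lower in knockout at 0 and 24 h, and type I markers lie lower at 24 h.

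Promoter sequences were read for the genes whose levels carry the results, to show the DNA just before their start sites. RefSeq windows (GRCm38.p6, 250 bases before to 50 after a start) were held for 44 of the 50 genes, 58 windows in all. The letters TTGCNNAA on either strand, a form of the site that C/EBP proteins bind, occurred in 3 of these 58 windows (5.17%) and in 10.8% of all 32851 windows. The letters CCAAT on either strand, a common promoter element, occurred in 32.8% of the members' windows and in 37.4% of all. TTGCNNAA lay before the start in 2 of the 3 windows, that of Sema4a (chr3:88455938-88455995, minus strand, 209 bases before the start, one of 4 windows of this gene) and that of Plxna3 (chrX:74328827-74328884, plus strand, 214 bases before the start), shown with 25 bases on each side and the match in capitals. Sema4a was lower in knockout at 24 h and Plxna3 was not called in any genotype comparison.
Sema4a: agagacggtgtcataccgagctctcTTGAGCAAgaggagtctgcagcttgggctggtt
Plxna3: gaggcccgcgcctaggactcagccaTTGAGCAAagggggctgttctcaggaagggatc

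The 120 bases before the start are shown for 5 genes whose values are given below: Sema3c (chr5:17574696-17574815, plus strand), Sema7a (chr9:57939992-57940111, plus strand) and Plxnc1 (chr10:94944846-94944965, minus strand), which were higher in knockout, and Sema3a (chr5:13396664-13396783, plus strand) and Epha4 (chr1:77515089-77515208, minus strand), whose genotype difference changed with time. Capitals mark CCAAT on either strand, which only the Epha4 stretch of these 5 holds. The 250 bases before the start were 78.4% G and C for Sema3c and 40.8% for Sema3a, against a median of 64.0% over the members' windows and 52.4% over all.
Sema3c: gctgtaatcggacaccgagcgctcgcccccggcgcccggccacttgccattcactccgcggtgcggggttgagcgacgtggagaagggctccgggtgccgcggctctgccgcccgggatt
Sema7a: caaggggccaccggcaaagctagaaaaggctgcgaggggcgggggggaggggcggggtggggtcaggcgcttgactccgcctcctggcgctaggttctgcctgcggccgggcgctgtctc
Plxnc1: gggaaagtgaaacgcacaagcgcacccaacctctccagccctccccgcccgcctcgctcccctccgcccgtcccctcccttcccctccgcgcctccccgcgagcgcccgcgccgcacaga
Sema3a: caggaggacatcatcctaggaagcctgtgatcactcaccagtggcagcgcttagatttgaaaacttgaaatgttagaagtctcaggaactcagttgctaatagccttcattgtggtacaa
Epha4: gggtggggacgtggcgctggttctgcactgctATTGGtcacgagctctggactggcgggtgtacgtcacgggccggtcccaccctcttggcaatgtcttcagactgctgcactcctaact

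Averaged over the 3 times, 13 of the 50 genes were called higher in knockout cells and 6 lower, against 7.13% of all genes higher and 9.75% lower. Semaphorins led the higher side. The genes called higher were Sema3c, Sema7a, Plxnc1, Sema6d, Sema3f, Sema6a, Sema3g, Epha4, Efnb2, Sema6b, Plxnd1, Sema4g and Epha3. The lower ones were Ephb3, Epha7, Ephb6, Plxna2, Sema3b and Efna1. Knockout minus control had the same sign at all 3 times for 23 of the 50 genes, positive for 16 (32%) and negative for 7 (14%), where 13.6% and 15.1% of all genes did so. In 4 members every knockout array lay above every control array at each of the 3 times, which 1.1% of all genes did: Sema3c, Sema3f, Sema3g and Sema6d. The median difference of the 50 was 0.08, against 0.01 over all genes. Without the arrays at 24 h, whose value range differed between genotypes, the average called 10 higher and 1 lower, with each array centred on its median it called 8 and 8, and without control replicate 3 at 2 h it called 12.

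**Figure D2:**
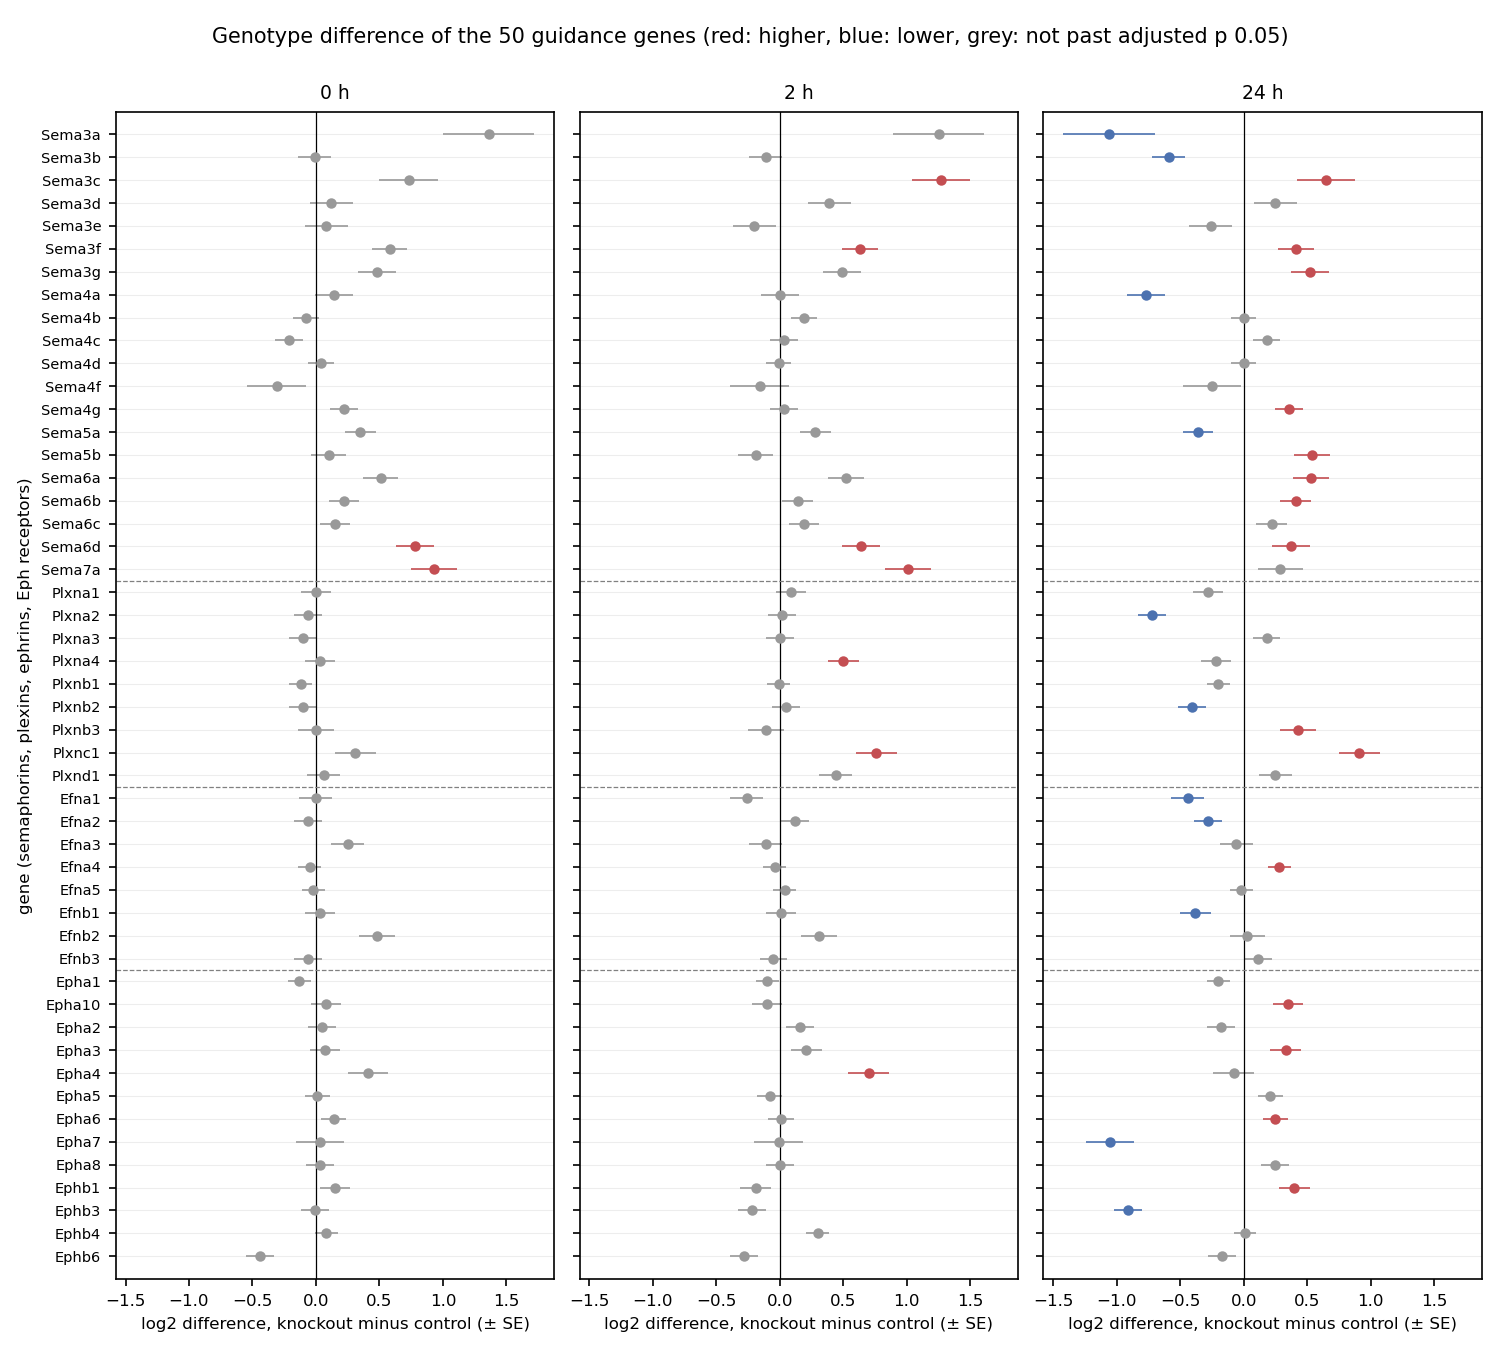
Difference in log2 value, knockout minus control, of the 50 genes at 0, 2 and 24 h with its standard error (3 arrays against 3), grouped as semaphorins, plexins, ephrins and Eph receptors. Red and blue points were called higher and lower: 2 higher at 0 h, 7 higher at 2 h, and 15 higher and 11 lower at 24 h.

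At 0 h, 2 genes were called higher and 0 lower, against 0.677% and 0.181% of all genes (10 and 1 of the 50 had an unadjusted p below 0.05 in limma). Both are membrane semaphorins. Sema6d, a transmembrane semaphorin that binds plexin A1, read 6.86, 6.66 and 6.77 in control and 7.48, 7.50 and 7.64 in knockout arrays, a difference of 0.78 ± 0.15 (SE; 1.72-fold, adjusted p = 0.02). Sema7a, anchored in the membrane by a lipid tail and known to bind plexin C1 and beta-1 integrins, read 7.99, 7.56 and 7.76 against 8.53, 8.81 and 8.78, a difference of 0.93 ± 0.18 (1.91-fold, adjusted p = 0.0213). In neither gene did the groups overlap. The median difference of the 50 genes was 0.05, against 0.00 over all genes. Leaving out knockout replicate 2, knockout replicate 3 or control replicate 2 left 0 calls, and leaving out control replicate 3 left 1, of another member. A second quantile normalization also left 0, with 8 of all genes higher and 1 lower. The differences of Sema6d and Sema7a stayed between 0.73 and 0.83 and between 0.82 and 1.04 without any single array.

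At 2 h, 7 genes were called higher and 0 lower, against 1.2% and 0.206% of all genes (15 and 1 at an unadjusted p below 0.05 in limma; eBayes with trend and robust settings also called 7). They were 4 semaphorins (Sema3c, Sema3f, Sema6d and Sema7a), 2 plexins (Plxnc1 and Plxna4) and 1 Eph receptor (Epha4). All 3 knockout arrays lay above all 3 control arrays for each of the 7. The median difference of the 50 genes was 0.03, against -0.02 over all genes. Leaving out control replicate 1 or control replicate 2 gave 3 calls, leaving out knockout replicate 2 gave 9, and leaving out control replicate 3 or knockout replicate 3 gave 0. A fit on the 6 arrays at 2 h alone and a fit with the replicate number as a block also called 0.

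At 24 h, 15 genes were called higher and 11 lower, against 24.3% and 26.4% of all genes, so the share of members called was near that of all genes. The median difference was 0.02 among the 50 and 0.05 over all genes. Across all genes the direction at 24 h went with the level: 40.7% of the genes with a mean level below the median gene were called higher, and 49.2% of those above it were called lower. The members followed this split in part. Of the 16 members below the median gene, 8 were called higher and 1 lower. Of the 34 above it, 10 were called lower and 7 higher, where 7.95% of all genes above it were called higher. The 7 were Sema3c, Sema3f, Sema3g, Sema6a, Sema6b, Sema6d and Efna4. Efna4 (mean 7.03) and Sema6b (7.05) lay close to the cut of 7.03, as did Plxnc1 (7.02), which was counted below it. The count fell to 15 without knockout replicate 1 and 14 without knockout replicate 2. With each array centred on its own median, which moved the median difference of all genes from 0.05 to -0.16, 3 members were called higher and 18 lower, and after a second quantile normalization 9 and 11. With the array's interquartile range as a covariate, 0 members were called (1 of all genes higher and 3 lower), and with these groups the range and the genotype cannot be told apart.

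Secreted semaphorins differed among themselves. Of the 7 class 3 members, 2 were called higher at 2 h, against 1.2% of all genes. At 24 h 3 were higher and 2 lower, against 24.3% and 26.4% of all genes, so these counts are no result about the class. Sema3c, which signals through neuropilins and plexin D1 and is known from heart outflow and vessel development, gave the largest called difference at 2 h. Its values were 8.60, 8.36 and 8.05 in control and 8.89, 10 and 9.93 in knockout arrays, a difference of 1.27 ± 0.23 (2.41-fold, adjusted p = 0.00813). At 0 h it read 8.70, 8.63 and 8.92 against 9.52, 9.76 and 9.15 (0.73, adjusted p = 0.185), and at 24 h 8.42, 8.86 and 8.66 against 9.41, 9.15 and 9.32 (0.65, adjusted p = 0.0251). The groups were apart at each time, and the average over the times was 0.88 ± 0.13.

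Sema3f, which binds neuropilin-2 and lies in a region often lost in lung cancer, read 8.18, 8.16 and 8.16 in control and 8.62, 8.79 and 8.81 in knockout arrays at 0 h (0.58, adjusted p = 0.0586). At 2 h the values were 8.39, 8.21 and 8.18 against 8.47, 9.05 and 9.15 (0.63, adjusted p = 0.0266). The difference at 24 h was 0.41 (adjusted p = 0.0212) and the average 0.54 ± 0.08. Sema3g, a class 3 semaphorin known from endothelial cells, differed by 0.48, 0.49 and 0.52 at 0, 2 and 24 h, called at 24 h only (adjusted p = 0.176, 0.132 and 0.00872). Its values at 24 h were 7.45, 7.88 and 7.77 in control and 8.29, 8.21 and 8.15 in knockout arrays, and its average was 0.50 ± 0.09.

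Sema3a, the neuropilin-1 ligand that repels growing axons, was the member whose genotype difference turned most. It read 6.88, 6.73 and 8.33 in control and 8.11, 8.40 and 9.52 in knockout arrays at 0 h, a difference of 1.36 ± 0.36 that was not called (adjusted p = 0.0966). At 2 h it read 6.66, 6.42 and 7.26 against 8.27, 8.17 and 7.67 (1.25, adjusted p = 0.106). At 24 h the order was the opposite, with 8.06, 8.59 and 7.99 in control and 7.18, 7.11 and 7.17 in knockout arrays (-1.06 ± 0.36, adjusted p = 0.0226). The groups overlapped at 0 h and were apart at 2 and 24 h. The difference at 24 h minus that at 0 h was -2.42 (adjusted p = 0.0141), and minus that at 2 h it was -2.31 (adjusted p = 0.00726). Both interactions were called without any single array, while the call at 24 h itself was lost without control replicate 2 and without knockout replicate 1 or 2. Among controls Sema3a rose by 1.43 from 2 to 24 h (adjusted p = 0.0142).

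Type I cell markers are given here beside Sema3a at each time. The mean of the 11 markers was 9.53, 9.27 and 10.08 in the control arrays at 0 h in the same replicate order, and 9.62, 9.73 and 10.60 in the knockout arrays. Replicate 3 was the highest of its group in both measures and in both genotypes at 0 h. At 2 h, where the Sema3a groups were apart, the marker mean was 9.16, 8.94 and 9.48 in control and 9.37, 9.20 and 9.21 in knockout arrays, which overlapped, and 0 of 11 markers were called (1 higher and 0 lower at an unadjusted p below 0.05 in limma). Within each genotype at 2 h, the array highest in Sema3a (7.26 in control and 8.27 in knockout) was also the highest in the marker mean. At 24 h the marker mean was 9.67, 10.18 and 9.75 in control and 8.84, 8.86 and 9.18 in knockout arrays. There 9 of 11 markers were called lower, against 26.4% of all genes. The array highest in Sema3a was the highest in the marker mean among controls at 24 h, and not among knockout arrays. The part of type I cells in the Sema3a result was not tested.

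Sema3b, a secreted semaphorin and candidate tumour suppressor of the lung, read 8.66, 8.71 and 8.63 in control and 8.07, 7.81 and 8.34 in knockout arrays at 24 h (-0.59 ± 0.13, adjusted p = 0.00165). It differed by -0.01 at 0 h and -0.11 at 2 h, neither called, and its change from 2 to 24 h was a rise of 0.60 in controls (adjusted p = 0.00398) and 0.12 in knockout cells (adjusted p = 0.47). Sema3d and Sema3e, the remaining class 3 members, were called in none of the 12 comparisons.

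**Figure D3:**
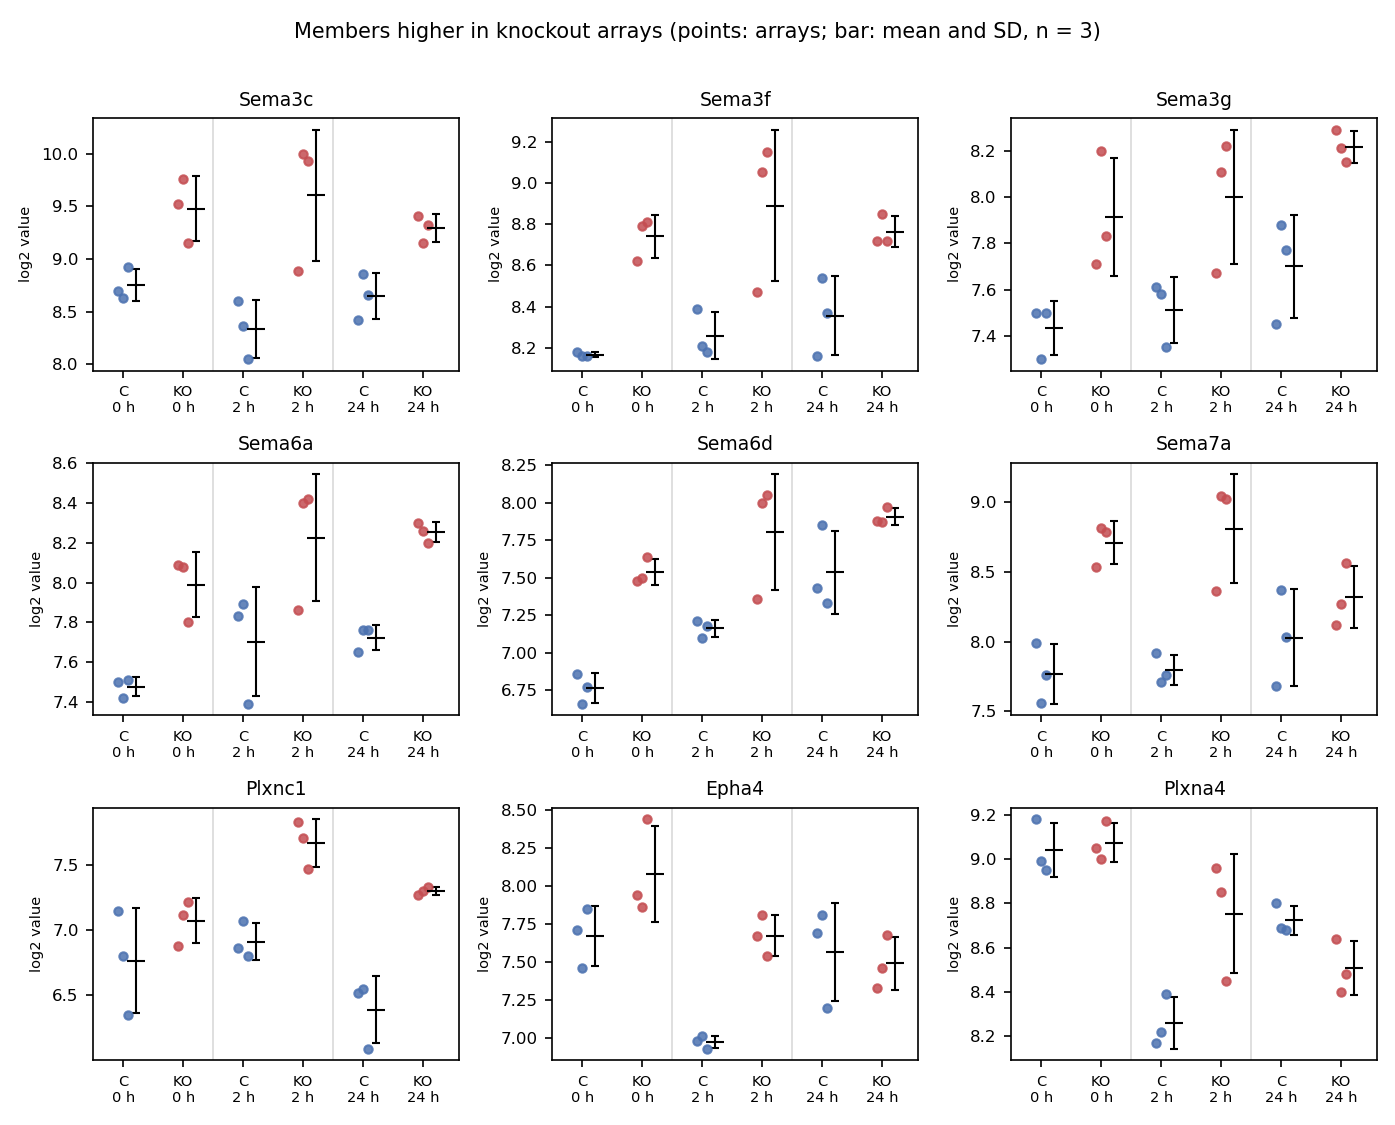
Log2 values of 9 genes called higher in knockout at one or more times, on each of 3 arrays per group (C, control; KO, knockout), with the mean and SD. Sema3c, Sema3f, Sema3g and Sema6d lie above the controls on every knockout array at each time, and Epha4 and Plxna4 stand apart upward at 2 h but not at 24 h.

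Among the 13 membrane semaphorins, 2 were called higher at 0 h and 2 at 2 h, against 0.677% and 1.2% of all genes. At 24 h 5 were higher and 2 lower, against 24.3% and 26.4% of all genes, so the counts at 24 h are no result about the class. Sema6d was the one gene of the 50 called at all 3 times. Its control values rose from a mean of 6.76 ± 0.10 (SD, n = 3) at 0 h to 7.54 ± 0.28 at 24 h (0.78, adjusted p = 0.000288), and the knockout values from 7.54 ± 0.09 to 7.91 ± 0.06 (0.37, adjusted p = 0.0323). The genotype difference was 0.64 at 2 h (adjusted p = 0.038) and 0.37 at 24 h (adjusted p = 0.0483), and the call at 24 h was kept in 1 of 6 fits that left out an array, that without control replicate 2.

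Sema7a at 2 h read 7.92, 7.71 and 7.76 in control and 8.36, 9.04 and 9.02 in knockout arrays (1.01 ± 0.18, 2.01-fold, adjusted p = 0.0092). At 24 h the groups overlapped, at 7.68, 8.37 and 8.03 against 8.12, 8.27 and 8.56 (0.29, adjusted p = 0.185). The difference at 24 h was smaller than at 2 h by -0.72 (adjusted p = 0.0442), and from 2 to 24 h Sema7a fell by 0.49 in knockout cells (adjusted p = 0.0492).

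Sema6a, a transmembrane semaphorin that binds plexins A2 and A4, showed nearly the same difference at each time, 0.51, 0.52 and 0.53, and was called at 24 h (adjusted p = 0.116, 0.0748 and 0.00635). Its values were 7.50, 7.42 and 7.51 in control and 8.09, 8.08 and 7.80 in knockout arrays at 0 h, and 7.65, 7.76 and 7.76 against 8.30, 8.26 and 8.20 at 24 h. The groups did not overlap at 0 or 24 h and did at 2 h. Sema6b and Sema5b, further transmembrane semaphorins, were higher at 24 h by 0.41 (adjusted p = 0.00885) and 0.54 (adjusted p = 0.00428), and Sema4g by 0.36 (adjusted p = 0.0108). Sema5b and Sema4g have mean levels below the median gene, and with each array centred on its median neither Sema6b nor Sema4g was called.

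The array with the lowest endothelial marker mean among the knockout arrays at 2 h, replicate 2 at 8.56 against 9.38 and 9.46, was also the lowest of the 3 for Sema3c (8.89), Sema3f (8.47), Sema3g (7.67), Sema6a (7.86), Sema6d (7.36) and Sema7a (8.36). It was the highest of the 3 for Plxnc1 (7.83) and Plxna4 (8.96). The same array was also the lowest of the 3 in the mean of the fibroblast (7.33 against 7.85 and 7.84), macrophage (6.96 against 7.56 and 7.56), lymphocyte (6.91 against 7.01 and 7.74) and airway markers (9.68 against 10.23 and 10.11). It was the highest in type I (9.37 against 9.20 and 9.21) and type II markers (12.40 against 12.08 and 11.89). Among the control arrays at 24 h, replicate 2 was the highest in endothelial markers (8.70 against 8.06 and 8.30). That array was also the highest for Sema3c (8.86), Sema3f (8.54), Sema3g (7.88), Sema6d (7.85) and Sema7a (8.37). The same held for fibroblast (7.51), macrophage (7.09) and type I markers (10.18), and not for type II (12.16), lymphocyte (6.49) or airway markers (9.49). Among the knockout arrays at 24 h the endothelial means lay closer together (8.93, 9.03 and 9.06). Replicate 1, the lowest at 8.93, was the highest for Sema3c (9.41), Sema3g (8.29) and Sema6a (8.30). Replicate 4, at 9.06, was the highest for Sema6d (7.97) and Sema7a (8.56), and replicate 2 for Sema3f (8.85). The arrays at 0 h and the controls at 2 h are not compared in this way here. Over the list, 8 of 18 endothelial markers were called higher at 0 h, 15 at 2 h and 16 at 24 h, with 1 called lower at 24 h. Of all genes 0.677%, 1.2% and 24.3% were called higher at these times, and 26.4% lower at 24 h. The part of endothelial or other cells in the semaphorin differences was not tested.

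Sema4a, a membrane semaphorin known from immune cells, read 9.24, 9.17 and 8.85 in control and 8.21, 8.21 and 8.55 in knockout arrays at 24 h (-0.77 ± 0.15, 1.70-fold lower, adjusted p = 0.00109). The groups did not overlap. It differed by 0.14 at 0 h and 0.00 at 2 h, so that the difference at 24 h was lower than at 0 h (-0.90, adjusted p = 0.0202) and than at 2 h (-0.77, adjusted p = 0.0176). Sema5a, which carries thrombospondin repeats and binds plexin B3, was higher in knockout by 0.35 and 0.28 at 0 and 2 h without a call and was called lower at 24 h (-0.36, adjusted p = 0.0241). Its interactions were -0.71 (adjusted p = 0.0215) and -0.64 (adjusted p = 0.0158).

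**Figure D4:**
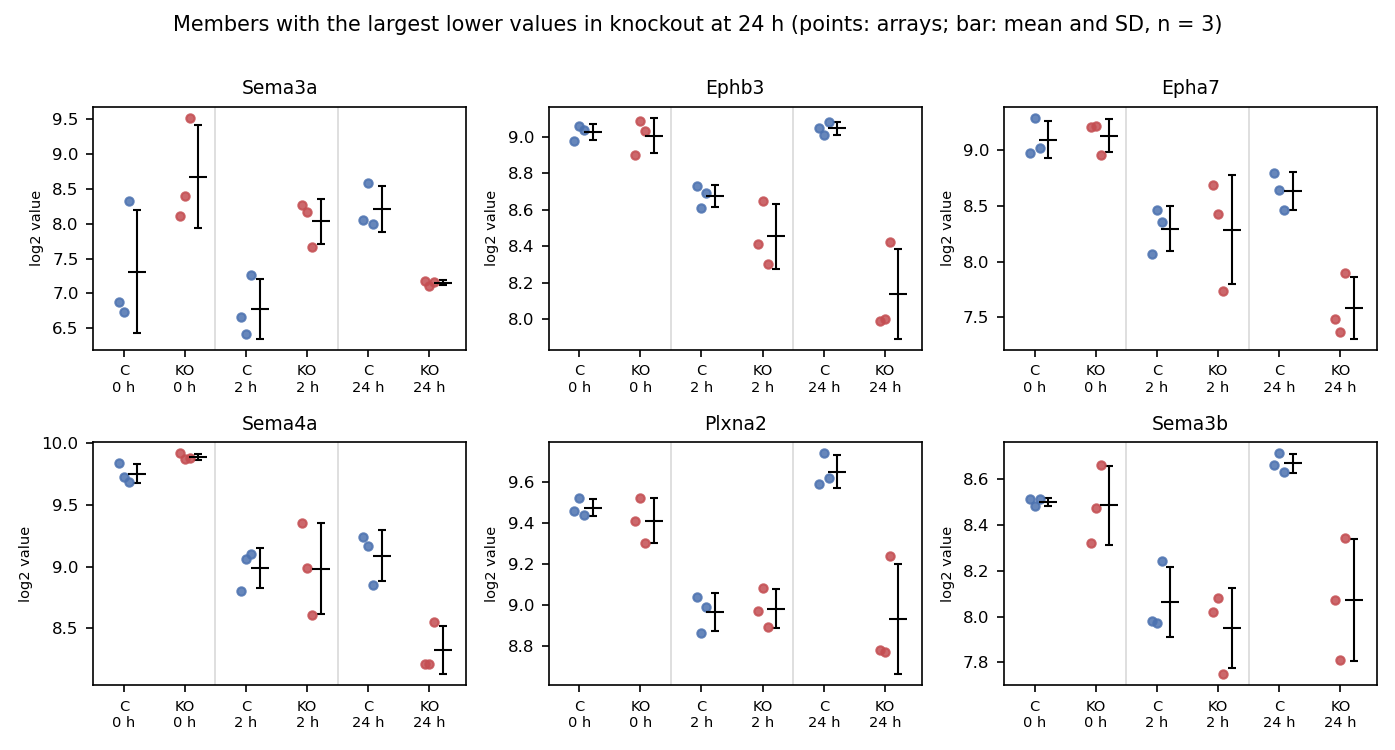
Log2 values of the 6 genes with the largest called decrease in knockout at 24 h, on each of 3 arrays per group (C, control; KO, knockout), with the mean and SD. All 3 knockout arrays at 24 h lie below all 3 control arrays in each panel, and Sema3a lies in the opposite order at 2 h.

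Plexins, the semaphorin receptors, were called higher in 2 of 9 at 2 h, against 1.2% of all genes. At 24 h 2 were higher and 2 lower, near the 24.3% and 26.4% of all genes. No plexin was called at 0 h, and none had an unadjusted p below 0.05 in limma. Plxnc1, the receptor of Sema7a, read 6.86, 7.07 and 6.80 in control and 7.83, 7.71 and 7.47 in knockout arrays at 2 h (0.76 ± 0.16, adjusted p = 0.0231). At 24 h it read 6.52, 6.55 and 6.09 against 7.27, 7.30 and 7.33 (0.91 ± 0.16, 1.89-fold, adjusted p = 0.000587). The groups overlapped at 0 h, at 7.15, 6.80 and 6.35 against 6.88, 7.12 and 7.22. The difference at 24 h stayed called without any single array.

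Plxna2, a receptor of class 6 and, with neuropilins, class 3 semaphorins, read 9.59, 9.74 and 9.62 in control and 8.78, 8.77 and 9.24 in knockout arrays at 24 h (-0.72 ± 0.11, adjusted p = 0.000224). It differed by -0.06 and 0.02 at 0 and 2 h, and the interactions were -0.66 (adjusted p = 0.0205) and -0.74 (adjusted p = 0.00662). Controls rose by 0.69 from 2 to 24 h (adjusted p = 0.000532), and knockout cells changed by -0.05 (adjusted p = 0.758). Plxnb2, a receptor of class 4 semaphorins, was lower at 24 h by 0.41 on the log2 scale (10.71, 10.59 and 10.50 against 10.18, 9.96 and 10.43, adjusted p = 0.00793). The 24 h groups of Plxna2 and of Plxnb2 did not overlap.

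Plxna4, a further class A plexin, was called at 2 h and not at 24 h. At 2 h it read 8.17, 8.22 and 8.39 in control and 8.96, 8.85 and 8.45 in knockout arrays (0.50 ± 0.12, adjusted p = 0.0404), and at 24 h 8.80, 8.69 and 8.68 against 8.64, 8.40 and 8.48 (-0.22, adjusted p = 0.121). The interaction between 2 and 24 h was -0.72 (adjusted p = 0.00832). Plxnb3, a receptor of Sema5a, was higher at 24 h by 0.43 (adjusted p = 0.0183) and has a mean level below the median gene. Plxnd1, the receptor of Sema3e, was called only in the average (0.25, adjusted p = 0.0261), and Plxnb1, the receptor of Sema4d, was called in none of the 12 comparisons. Plxna1 and Plxna3 were called in no genotype comparison.

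Among the 3 times, ephrins were called at 24 h. None of the 8 was called at 0 or 2 h (1 higher and 0 lower at each time had an unadjusted p below 0.05 in limma). At 24 h 1 was higher and 3 lower, against 24.3% and 26.4% of all genes, so these counts are no result about the family. Efna1, a lipid-anchored ligand of EphA2, read 8.73, 8.83 and 8.78 in control and 8.29, 8.28 and 8.45 in knockout arrays at 24 h (-0.44 ± 0.13, adjusted p = 0.0135). Efnb1, a transmembrane ephrin, read 8.36, 8.41 and 8.29 against 7.85, 7.83 and 8.24 (-0.38 ± 0.12, adjusted p = 0.0132). In both genes the 24 h groups did not overlap. Efna2 was lower by 0.28 on the log2 scale (adjusted p = 0.0374) and Efna4 higher by 0.28 (adjusted p = 0.0185). Efnb2, the ephrin of arterial endothelium, read 9.41, 9.52 and 9.36 against 9.88, 10.05 and 9.80 at 0 h (0.48, adjusted p = 0.146) and was called only in the average (0.27, adjusted p = 0.0279). Its receptor Ephb4, known from veins, was called in no genotype comparison.

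Eph receptors were called higher in 1 of 13 at 2 h, against 1.2% of all genes. At 24 h 4 were higher and 2 lower, where 24.3% and 26.4% of all genes were called and the share is no result about the family. None was called at 0 h, with 1 higher and 1 lower at an unadjusted p below 0.05 in limma. Ephb3, known for sorting cells along the intestinal crypt, had the smallest adjusted p of the 50 genes at 24 h. It read 9.05, 9.01 and 9.08 in control and 7.99, 8.00 and 8.42 in knockout arrays, a difference of -0.91 ± 0.11 (1.88-fold lower, adjusted p = 4.89e-05). At 0 h its values were 8.98, 9.06 and 9.04 against 8.90, 9.09 and 9.03, and the groups overlapped there and at 2 h. The difference at 24 h was lower than at 0 h (-0.89, adjusted p = 0.00722) and than at 2 h (-0.68, adjusted p = 0.0082). From 2 to 24 h Ephb3 rose by 0.37 in controls (adjusted p = 0.0362) and fell by 0.31 in knockout cells (adjusted p = 0.0396).

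Epha7, a receptor for A-class ephrins, read 8.80, 8.64 and 8.46 in control and 7.49, 7.37 and 7.90 in knockout arrays at 24 h (-1.05 ± 0.19, 2.06-fold lower, adjusted p = 0.000616). It differed by 0.03 and -0.01 at 0 and 2 h, and the interactions were -1.08 (adjusted p = 0.022) and -1.04 (adjusted p = 0.0129). Epha4, which binds ephrins of both classes, read 6.98, 7.01 and 6.93 in control and 7.67, 7.81 and 7.54 in knockout arrays at 2 h (0.70 ± 0.16, adjusted p = 0.034). At 24 h its groups overlapped, at 7.69, 7.81 and 7.20 against 7.33, 7.46 and 7.68, and the interaction between 2 and 24 h was -0.78 (adjusted p = 0.0206). Control values at 2 h were the lowest of the 6 groups: controls fell by 0.70 from 0 to 2 h (adjusted p = 0.000923) and rose by 0.59 from 2 to 24 h (adjusted p = 0.0205).

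Ephb1, Epha10, Epha3 and Epha6 were higher in knockout at 24 h by 0.40, 0.35, 0.33 and 0.25 (adjusted p = 0.0101, 0.0206, 0.0272 and 0.0433). All 4 have mean levels below the median gene, and none of the 4 was called after a second quantile normalization or with each array centred on its median. Ephb6, a receptor without kinase activity, was lower in the average over the times (-0.29, adjusted p = 0.00442), with 7.85, 7.57 and 7.74 in control and 7.38, 7.27 and 7.21 in knockout arrays at 0 h (-0.44, adjusted p = 0.08). Epha2, the main epithelial EphA receptor, differed by 0.05, 0.16 and -0.18 and was called in no genotype comparison. Its 18 values lay between 10.67 and 11.58.

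The genotype difference at 24 h was tested against that at 0 h and at 2 h. Against 0 h, 0 members were higher and 7 lower, compared with 5.46% and 8.88% of all genes (5 members had a positive and 12 a negative interaction at an unadjusted p below 0.05 in limma). The 7 were Sema3a, Epha7, Sema4a, Ephb3, Sema5a, Plxna2 and Sema3b. Against 2 h, 4 members were higher and 11 lower, compared with 14.3% and 16.5% of all genes. The 11 were the same 7 and Epha4, Plxna4, Sema7a and Plxnb2, and the 4 were Sema5b (0.74), Ephb1 (0.59), Plxnb3 (0.55) and Epha10 (0.45). Both tests share the arrays at 24 h. The first count was 2 without knockout replicate 1 or 2 at 24 h, 3 without knockout replicate 2 at 0 h and 12 without knockout replicate 4 at 24 h. The second was 8 or 9 without control replicate 1 at 2 h, control replicate 2 at 24 h, or knockout replicate 1 or 2 at 24 h. With each array centred on its median the counts were 0 higher and 11 lower against 0 h and 1 higher and 22 lower against 2 h, and the latter were 1 and 9 after a second quantile normalization. Across all genes the direction went with the level here too. Of the 34 members above the median gene, 6 were lower against 0 h and 10 against 2 h. Of all genes above it 16.9% and 30.9% were lower, near the share of these members. Of the 16 members below it, 0 and 4 were higher and 1 was lower in each test. Of all genes below it 9.34% and 26.1% were higher, and 0.873% and 2% lower. The counts are no result about the members.

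The changes from 2 to 24 h were compared within each genotype. In control cells 9 members rose and 5 fell, against 7.97% and 4.46% of all genes, and in knockout cells 3 rose and 11 fell, against 11.8% and 19.6%. All genes leaned the same way, with more increases than decreases in controls and the opposite in knockout cells. Of the 14 genes called in controls and the 14 called in knockout cells, 1 rose in both (Plxna1) and 4 fell in both (Sema4f, Sema4b, Sema4c and Epha1), 5 of 14 for each list, and Ephb3 was called in opposite directions. Plxna1, a receptor of class 3 and class 6 semaphorins, rose from 9.38, 9.33 and 8.94 to 10.08, 10.03 and 10.43 in controls (0.96 ± 0.12, adjusted p = 5.95e-05). In knockout cells it rose from 9.12, 9.40 and 9.40 to 10.02, 9.85 and 9.84 (0.59 ± 0.12, adjusted p = 0.00252). The times did not overlap in either genotype, and its interaction was -0.37 (adjusted p = 0.104).

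Among the class 4 semaphorins, 3 fell in both genotypes. Sema4f, a transmembrane semaphorin, went from 8.38, 8.69 and 9.26 to 8.05, 8.00 and 7.74 in controls (-0.85, adjusted p = 0.0238) and from 9.11, 8.79 and 7.94 to 7.71, 7.74 and 7.58 in knockout cells (-0.93, adjusted p = 0.00727). Sema4b fell by 0.39 in controls and by 0.58 in knockout cells (adjusted p = 0.0121 and 0.000622), and Sema4c, a ligand of plexin B2, fell by 0.53 and by 0.37 (adjusted p = 0.00488 and 0.0191). Epha1, an epithelial Eph receptor, fell by 0.28 and by 0.38 (adjusted p = 0.0432 and 0.00426). Genes that rose in controls only by the call were Sema3a, Plxna2, Sema3b, Epha4, Plxna4, Sema5a and Efna2, of which all but Efna2 had a called interaction. In knockout cells Epha7 fell by 0.70, Sema4a by 0.66 and Efnb1 by 0.46 (adjusted p = 0.0108, 0.00437 and 0.00728). The count in controls was between 5 and 9 without any single array, and that in knockout cells was 7 without replicate 1 or 2 at 24 h, 8 without replicate 2 at 2 h and 9 without replicate 3 at 2 h. With each array centred on its median 10 rose and 2 fell in controls and 1 rose and 16 fell in knockout cells, where a second quantile normalization gave 1 and 10. For knockout cells a fit of only the groups compared gave 1 and 3, and the array's interquartile range as a covariate gave 0 and 1.

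**Figure D5:**
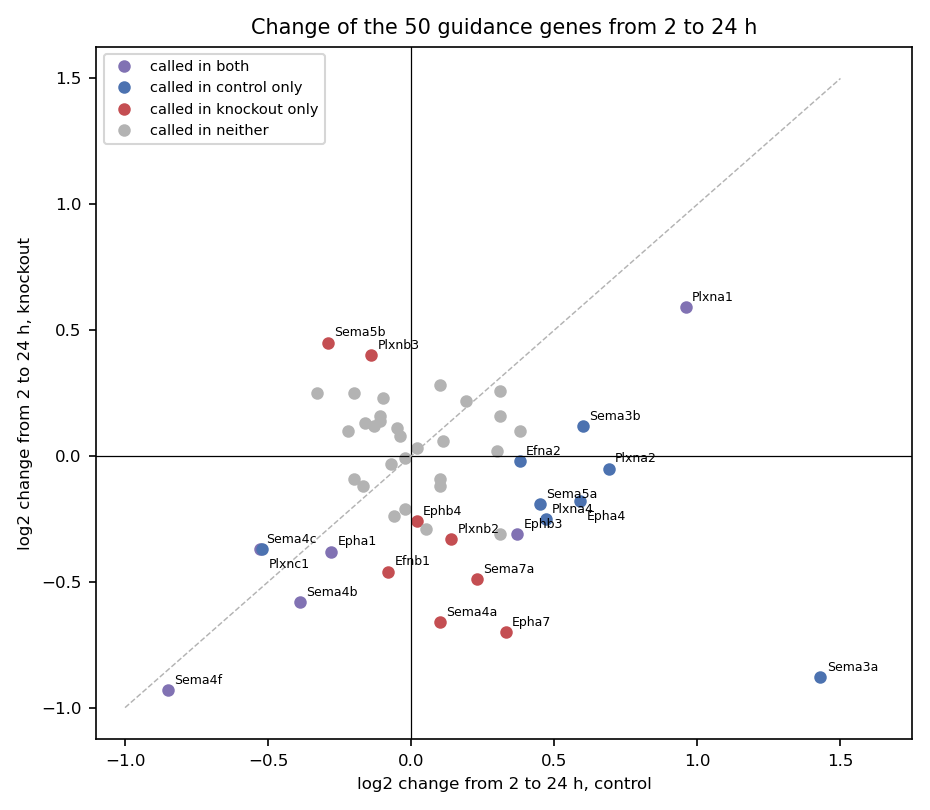
Change in log2 value from 2 to 24 h of the 50 genes in control (horizontal axis) and knockout cells (vertical axis), coloured by where the change was called; the dashed line marks equal change. Sema4f, Sema4b, Sema4c and Epha1 fell and Plxna1 rose in both genotypes, and Sema3a lies at 1.43 in controls and -0.88 in knockout cells.

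Changes from 0 h span arrays with different ranges of values, and most genes of any kind were called. In control cells from 0 to 2 h, 10 members rose and 20 fell, against 30.7% and 39.4% of all genes, and from 0 to 24 h 9 rose and 16 fell, against 25.3% and 34.6%. In knockout cells 7 rose and 19 fell from 0 to 2 h, against 26.9% and 36.2%, and 11 rose and 21 fell from 0 to 24 h, against 36% and 41.5%. Depending on the scaling, the split moved to 6 and 26 (centred on the median) or 6 and 9 (quantile) for controls from 0 to 2 h, to 12 and 9 (quantile) or 6 and 18 (centred) for controls from 0 to 24 h, to 9 and 5 (quantile) for knockout cells from 0 to 2 h, and to 5 and 29 (centred) for knockout cells from 0 to 24 h. The largest decrease was that of Sema4f, by 1.70 in controls and 1.65 in knockout cells over 24 h, from 9.74, 9.66 and 9.50 and from 9.17, 9.15 and 9.65 at 0 h. Other large decreases over 24 h were those of Sema4c (-0.92) and Sema4b (-0.78) in controls and of Sema4a (-1.56) and Epha7 (-1.54) in knockout cells. The largest increases were those of Sema3a (0.90), Sema6d (0.78) and Plxna1 (0.70) in controls and Plxnb3 (0.86), Ephb1 (0.85) and Sema5b (0.76) in knockout cells. Over the first 2 h, Ephb1 (0.94), Epha6 (0.65) and Epha10 (0.63) rose and Sema4f (-0.86), Epha7 (-0.80) and Plxna4 (-0.78) fell in controls. In knockout cells Plxnc1 (0.60), Ephb1 (0.60) and Epha6 (0.51) rose and Sema4a (-0.90), Epha7 (-0.84) and Sema4f (-0.71) fell over the same time. With the array's interquartile range as a covariate, 4 members were called for controls from 0 to 24 h and 0 in the other 3 comparisons. Without knockout replicate 4 at 2 h, 16 were called for knockout cells from 0 to 2 h.

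Of the 50 genes, 5 were called in none of the 12 comparisons, where 91.6% of all genes were called in at least 1. The 5 are Efnb3, Plxnb1, Sema3d, Sema3e and Sema6c, whose differences lay between -0.36 and 0.39 over the 12 comparisons. Genotype was called at 1 or more times for 29 of the 50 and for 51.5% of all genes, and time for 39 of the 50 and 88.8% of all genes. Of the 4 genes with 2 features on the array, Epha10 and Ephb1 were called higher at 24 h by both (second features 0.43 and 0.46, adjusted p = 0.0227 and 0.0361), Sema6b's features held equal values, and those of Sema4d differed, with -0.25 and 0.53 for the change from 0 to 24 h in controls, both called.

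Partners of these receptors were counted from a list of 50 co-receptors and signalling proteins. At 0 h 0 were called (6 higher and 2 lower at an unadjusted p below 0.05 in limma). At 2 h 2 were higher and 0 lower (11 and 1 unadjusted). At 24 h 8 were higher and 19 lower, against 24.3% and 26.4% of all genes. The median difference at 24 h was -0.16 against 0.05 over all genes. Of all genes above the median gene by mean level, 49.2% were called lower at 24 h. The partners were not split by level, so their counts at 24 h are no result about the list. Itga1, an integrin chain of a Sema7a receptor, was higher at 2 h by 0.92 (adjusted p = 0.0164) and at 24 h by 0.52 (adjusted p = 0.0294), and Pdlim7 was higher at 2 h by 0.47 (adjusted p = 0.0441). The largest decreases at 24 h were in Met, the hepatocyte growth factor receptor and a partner of plexin B1 (-0.93, adjusted p = 5.56e-05), in Farp1 (-0.76, adjusted p = 0.000339), in Nrp1, the neuropilin that binds Sema3a (-0.54, adjusted p = 0.00405), and in Dpysl2, a collapsin response mediator downstream of Sema3a (-0.54, adjusted p = 0.00578). The largest increases were in Arhgef15, an exchange factor downstream of Eph receptors (0.59, adjusted p = 0.00451), Mical3 (0.56, adjusted p = 0.000805), Itga1, and Cd72, a Sema4d receptor of B cells (0.50, adjusted p = 0.0159). The kinase gene Fyn was also higher by 0.50 (adjusted p = 0.0108).

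Other guidance families, the Slit, Robo, netrin, RGM and FLRT genes, were listed by 31 symbols, which gave 29 genes. Ntng2 had no match, and Hfe2 and Hjv are symbols of the same gene. At 0 and 2 h 0 were called (11 and 5 higher, 0 lower at an unadjusted p below 0.05 in limma). At 24 h 12 were higher and 5 lower, against 24.3% and 26.4% of all genes, with a median difference of 0.14 against 0.05 over all genes. These genes were not split by level either. The lower genes were led by Flrt3 (-0.97, adjusted p = 0.000366), Neo1, a receptor of netrins and RGM proteins (-0.66, adjusted p = 0.000328), Robo2, a Slit receptor (-0.50, adjusted p = 0.0102), and Rgmb (-0.45, adjusted p = 0.00154). The higher genes were led by Srgap3, which acts downstream of Robo receptors (0.74, adjusted p = 0.000986), Robo4, the Robo receptor of endothelial cells (0.50, adjusted p = 0.0205), Draxin (0.49, adjusted p = 0.00375) and Flrt1 (0.47, adjusted p = 0.00605).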

How the data were processed

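RNA of isolated type II cells was measured on 18 Affymetrix arrays. The authors deposited log2 values made with RMA, per the submitters' processing notes, with no version given. No further normalization was applied in the main analysis. Of 35557 features, 21789 carried 1 gene symbol, 1621 several and 12147 none. Features with 1 symbol gave 19938 genes, each taken from its feature of highest mean. A model of the 6 group means was fitted to all genes with limma 3.58.1 (R 4.3.3, lmFit and eBayes), and p-values were adjusted by Benjamini-Hochberg over all genes. The number of arrays limits the precision. Members were found by symbol. The rule named up to 8 called members in each direction per comparison by size, members with a called interaction, and up to 4 called genes in each direction of the other lists. Further members were named after their values were seen, and for changes from 0 h the 3 largest in each direction are given. Members and lists were chosen with earlier results of these data known. Promoter windows are those of RefSeq (GRCm38.p6). The fit was tested on simulated data: at 24 h it recovered 67 of 100 genes changed 1.5-fold and 96 of 100 changed 2-fold, with 2 false calls. The simulation changed only these genes, in the knockout arrays at 24 h, and added independent normal noise to equal group means. It held no difference in array range between groups, so it cannot give the rate of false calls in these data. Alternatives covered scaling, array range, the replicate number, features, low genes and single arrays. Those using only the 12 arrays at 2 and 24 h, or only 0 and 2 h, were chosen after seeing the data.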

Additional observations from a re-analysis of the deposited data

Results flagged for a closer look

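The genotype difference (knockout minus control, log2) at 24 h differed from that at an earlier time by the interaction test for the members below, with limma's p adjusted over all genes. Against 0 h, the interaction was -2.42 for Sema3a, -1.08 for Epha7, -0.90 for Sema4a, -0.89 for Ephb3, -0.71 for Sema5a, -0.66 for Plxna2 and -0.58 for Sema3b. Against 2 h, it was -2.31 for Sema3a, -1.04 for Epha7, -0.78 for Epha4, -0.77 for Sema4a, -0.74 for Plxna2, -0.72 for Plxna4, -0.72 for Sema7a, -0.68 for Ephb3, -0.64 for Sema5a, -0.48 for Sema3b and -0.46 for Plxnb2. Positive interactions against 2 h were 0.74 for Sema5b, 0.59 for Ephb1, 0.55 for Plxnb3 and 0.45 for Epha10. The adjusted p lay between 0.00662 (Plxna2) and 0.0487 (Sema3b). With the array's interquartile range as a covariate, 0 of these interactions were called. Among members above the median gene by mean level, the share with a called negative interaction was near that of all genes there.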

How the results depend on the processing

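Counts of members called are given in the order of the main count and then the alternative. Leaving out 1 array gave 0 to 2 calls at 0 h, 0 to 9 at 2 h, 14 to 27 at 24 h, 12 to 24 for the average, 2 to 12 and 8 to 18 for the interactions of 24 h with 0 h and with 2 h, 26 to 29, 19 to 24 and 5 to 9 for controls from 0 to 2, 0 to 24 and 2 to 24 h, and 16 to 29, 28 to 34 and 7 to 18 for the same times in knockout cells. Same-numbered arrays did not deviate together (7 pairs, r between -0.24 and 0.06, 0 above 0.1), so the numbers were not taken as pairs. With the replicate number as a block the count went from 7 to 0 at 2 h, from 26 to 16 at 24 h, from 19 to 12 for the average, from 7 to 3 for the interaction with 0 h and from 14 to 9 for knockout cells from 2 to 24 h. A second quantile normalization gave 0 calls at 0 h, 15 for controls and 14 for knockout cells from 0 to 2 h. Centring each array on its median gave 11 and 23 for the interactions with 0 h and 2 h. Fits of only the groups compared gave 0 at 2 h and 4 for knockout cells from 2 to 24 h. Requiring a change of at least 1.5-fold left 8 at 24 h, 4 for the average, 10, 9 and 6 for controls (0 to 2, 0 to 24 and 2 to 24 h) and 5, 17 and 4 for knockout cells. The average of 0 and 2 h only called 11, with Epha7 at 0.01.

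The array's interquartile range as a covariate gave 5 calls at 0 h, 0 at 24 h, 8 for the average, 0 for both interactions, 0, 4 and 9 for controls and 0, 0 and 1 for knockout cells. Of the values named in the text, those that changed sign with it were Efna1 0.10, Efnb1 0.12, Epha10 -0.06, Plxnb2 0.00, Plxnb3 -0.18, Sema3c -0.04, Sema3f -0.09 and Sema6a 0.00 at 24 h. In the interaction with 2 h they were Epha10 -0.04, Epha7 0.04, Plxnb2 0.03, Plxnb3 -0.19, Sema3b 0.15 and Sema4a 0.10. From 0 to 2 h they were Epha7 0.50 and Sema4f 0.44 in controls and Epha7 0.22 and Sema4f 0.34 in knockout cells. In knockout cells they were Epha7 0.21, Plxnb3 -0.34, Sema4f 0.10 and Sema5b -0.20 from 0 to 24 h and Plxnb3 -0.07 from 2 to 24 h. Over all called members it turned the sign of 12 of 30 and 7 of 25 in controls from 0 to 2 and 0 to 24 h, and of 10 of 26 and 16 of 32 in knockout cells. The cause of these changes was not tested. Over all called members and alternatives, 2622 of 3447 values kept their call, 738 lost it and 87 changed sign. The calls of Plxnc1, Sema3c, Sema3f, Sema3g, Sema6a, Sema6d and Sema7a in the average held under all 26 alternatives run for it on single genes.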
